A study of Mus musculus with 2 samples.

Results

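Potassium channel genes carry a common symbol root, Kcn, followed by the letters of a subfamily and a number. Every symbol of that form in the feature list was taken, which gave 92 of 19465 genes, and the 71 with at least 20 unique molecular identifiers (UMIs, 1 per captured probe molecule) over both heart sections make up the family described here. The other 21 had between 9 and 19 UMIs in all, so that they were measured too thinly for a ratio, with Kcnh1, Kcnip1, Kcnk5 and Kcnk18 just outside at 19 each, while Kcna10, Kcnab3, Kcnj1, Kcnk7 and Kcnk9 stood just inside at 21 each. The minimum was set on the sum of both sections, so a gene could also enter through the section in which it was high. Of the 71 members, 29 encode voltage-gated channels, 13 inward rectifiers, 11 two-pore channels, 7 calcium-activated channels with their sodium-activated relatives, and 11 accessory subunits.

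RNA was counted on formalin-fixed, paraffin-embedded mouse heart sections of 5 μm with Visium CytAssist, in which pairs of probes bound to a transcript are captured by barcoded spots printed in a grid, so that each spot holds the RNA of several neighbouring cells. The control was 1 section of an α-MHC-MerCreMer+/− heart, and the TOP2B transgenic was 1 section of an α-MHC-MerCreMer+/− hTOP2B LSL/− heart. MerCreMer is a tamoxifen-dependent Cre recombinase driven by the α-myosin heavy chain promoter, which is active in cardiomyocytes, and in the transgenic mouse it removes a STOP cassette that stands between a CAG promoter and a human TOP2B cDNA at the Rosa26 locus. Both mice carried the recombinase and both received 80 mg/kg of tamoxifen, given at 6 weeks of age according to the methods, while the interval from injection to collection of these hearts is not given in the sources used here. The comparison asks how the channel transcripts of a heart that overexpresses TOP2B, a DNA topoisomerase linked to anthracycline cardiotoxicity, differ from those of a control heart. With 1 section per genotype there was no replicate and no test, genotype and section cannot be told apart, and spots, which share a section, were not treated as replicates.

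The control section had 1256 spots and 14376300 UMIs (median 11335.5 per spot) and the transgenic section 924 spots and 12953389 UMIs (median 14531 per spot). The array positions under both sections carry the same barcodes, of which 725 were used in both sections. A total of 11 control spots and 2 transgenic spots lay apart from the main tissue, with 0.0627% of the control UMIs and 1 transgenic UMI. Values are UMIs of a gene per 1000000 UMIs of its section (CPM), and differences are log2 ratios of transgenic over control CPM with 95% intervals for counting error alone. Across all 15236 genes with at least 20 UMIs the median log2 ratio was 0.20, so a gene at 0 lay slightly under the typical gene. The number of probes per gene differs, so UMI counts do not rank genes by transcript amount. Shares and sums over several genes depend on it too, and only their difference between sections was read. Mouse Top2b was at 106 CPM in control tissue and 102 CPM in transgenic tissue, for a log2 ratio of -0.07 (-0.17 to 0.04), which says nothing of the transgene unless the mouse probes also bind the human cDNA, and that was not tested. Cardiomyocyte markers fitted the cardiac label, with 8 genes that summed to 52454.6 CPM in control tissue and 31397.3 CPM in transgenic tissue.

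Potassium channels set the resting potential of a cardiomyocyte and return it to rest after each action potential. The transient outward current of Kv4 and Kv1.4 channels gives the fast early repolarization that is prominent in mouse ventricle, delayed rectifiers of the Kv1, Kv2, KCNQ1 and ERG channels continue it, and inward rectifiers and two-pore channels hold the membrane near rest. Accessory subunits have no pore of their own and alter how channels open or reach the membrane. In failing hearts, smaller transient outward and inward rectifier currents are a textbook finding.

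The transient outward current genes differed in both directions between the sections. Promoters were planned only where members move together, beside protein stretches, for which no sequences were at hand. As a departure from that plan, the 250 bases in front of the start sites of these genes are printed. They come from RefSeq in build GRCm38.p6 (the submitters' processing notes name GRCm39), and the windows are chr19:45816064-45816313 on the minus strand for Kcnip2, chr6:21215096-21215345 on the plus strand for Kcnd2, chr3:105451640-105451889 on the plus strand for Kcnd3 and chr2:107290339-107290588 on the plus strand for Kcna4. Each window lies upstream of the annotated start, outside the transcript that begins there. Capitals mark the E-box letters CANNTG.
Kcnip2: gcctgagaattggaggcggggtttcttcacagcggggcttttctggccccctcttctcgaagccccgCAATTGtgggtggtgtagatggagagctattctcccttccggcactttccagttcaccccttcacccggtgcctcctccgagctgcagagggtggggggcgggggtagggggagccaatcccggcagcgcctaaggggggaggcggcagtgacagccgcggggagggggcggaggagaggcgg
Kcnd2: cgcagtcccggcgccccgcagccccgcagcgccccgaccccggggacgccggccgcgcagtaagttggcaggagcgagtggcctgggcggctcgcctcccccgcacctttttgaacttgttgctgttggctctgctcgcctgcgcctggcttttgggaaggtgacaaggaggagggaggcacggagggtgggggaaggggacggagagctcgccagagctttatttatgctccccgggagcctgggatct
Kcnd3: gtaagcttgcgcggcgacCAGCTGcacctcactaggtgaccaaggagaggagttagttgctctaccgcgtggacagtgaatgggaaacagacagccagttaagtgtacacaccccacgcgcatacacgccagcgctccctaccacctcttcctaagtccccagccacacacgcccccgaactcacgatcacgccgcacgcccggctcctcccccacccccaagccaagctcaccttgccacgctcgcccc
Kcna4: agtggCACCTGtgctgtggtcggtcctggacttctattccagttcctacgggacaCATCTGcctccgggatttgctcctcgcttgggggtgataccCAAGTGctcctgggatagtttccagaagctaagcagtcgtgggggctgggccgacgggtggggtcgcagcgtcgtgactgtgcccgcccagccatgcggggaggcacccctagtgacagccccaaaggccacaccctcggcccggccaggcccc
The Kcna4 window held 3 E-boxes, the Kcnip2 and Kcnd3 windows 1 each and the Kcnd2 window 0. On both strands, the letters CANNTG occurred in 66.2% of all 32851 promoter windows of this length and in 68.6% of the 70 windows that 49 of the 71 members had in the table. GGAAA was found once each in the Kcnip2, Kcnd3 and Kcna4 windows and in 55.6% of all windows. TATAAA (12.4% of all windows) and ACANNTGT (6.31%, every copy of which is also a CANNTG) were in none of the 4. All 4 windows were rich in G and C, from 62.8% for Kcnd3 to 68.8% for Kcnd2, against a median of 52.4% over all windows and 58.2% over those of the members. A match of letters describes the sequence and is not a binding site.

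Kcnip2, Kcnd2 and Kcnd3 were all lower in the transgenic section, while Kcna4 was higher. Kcnip2 encodes KChIP2, the calcium-binding subunit that Kv4 channels need for a full transient outward current in the ventricle. It had 3005 UMIs (209 CPM) in the control and 205 UMIs (15.8 CPM) in the transgenic section, a 13.2-fold lower level with a log2 ratio of -3.72 (-3.93 to -3.52), the lowest of the family. As a view of the spread inside a section, each section was cut into 4 quadrants at its median spot row and column, and Kcnip2 stood at 202 to 224 CPM in the control quadrants and at 12.7 to 20.6 CPM in the transgenic ones, without overlap.

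Kcnd2 encodes Kv4.2, the pore of the fast transient outward current. It was at 19.5 CPM (281 UMIs) in the control and 3.24 CPM (42 UMIs) in the transgenic section, for a log2 ratio of -2.59 (-3.10 to -2.12). Kcnd3, the Kv4.3 gene, was at 22.9 CPM in control tissue and 8.26 CPM in transgenic tissue, for a log2 ratio of -1.47 (-1.80 to -1.15). For neither gene did the quadrants of the sections overlap. Kcna4 encodes Kv1.4, the pore of the slowly recovering transient outward current, and had 81 UMIs (5.63 CPM) in the control and 406 UMIs (31.3 CPM) in the transgenic section. Its log2 ratio was 2.48 (2.13 to 2.84), and every transgenic quadrant (27.5 to 33.1 CPM) lay above every control quadrant (4.26 to 8.05 CPM).

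Shares of UMIs inside 1 section need no scaling between sections. They still depend on the number of probes per gene, so a share is not the composition of the transcripts. Of the UMIs of Kcna4, Kcnd2 and Kcnd3, Kcna4 held 11.7% in the control (exact 95% interval 9.42 to 14.4%, 81 of 691) and 73.2% in the transgenic section (69.3 to 76.8%, 406 of 555). By quadrant, the share was 8.47 to 18.5% in the control and 70.7 to 78.2% in the transgenic section. Kcnip2 held 83.1% of the UMIs of Kcnip2, Kcnd2 and Kcnd3 in the control and 57.9% in the transgenic section, so it was lower by more than the pores it joins.

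**Figure D1:**
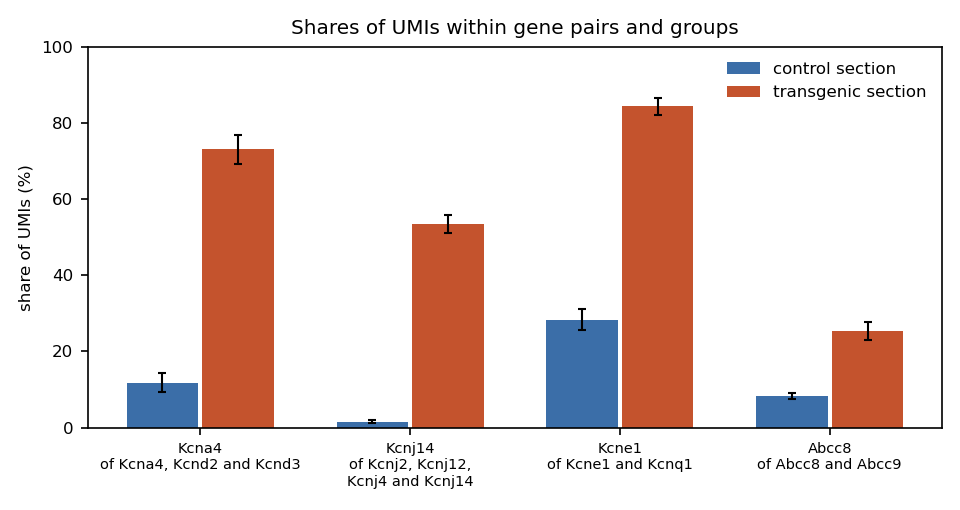
Shares of UMIs (%, vertical axis) that 1 gene held within a pair or group of genes in the control (blue) and transgenic (orange) section, with exact 95% binomial intervals as error bars. The Kcna4 share was 11.7% against 73.2%, the Kcnj14 share 1.54% against 53.4%, the Kcne1 share 28.3% against 84.5% and the Abcc8 share 8.28% against 25.3%.

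The genes of the slow delayed rectifier differed in opposite directions. Kcnq1 encodes its pore and was at 49.2 CPM (708 UMIs) in the control and 12.2 CPM (158 UMIs) in the transgenic section, for a log2 ratio of -2.01 (-2.27 to -1.76). Kcne1 encodes the small subunit that slows the opening of that pore and was at 19.5 CPM (280 UMIs) in the control and 66.5 CPM (862 UMIs) in the transgenic section, for a log2 ratio of 1.77 (1.58 to 1.97). The quadrants did not overlap for either gene, and Kcne1 ran from 14.9 to 24.2 CPM in control tissue and from 48.0 to 99.3 CPM in transgenic tissue. Of the UMIs of this pair, Kcne1 held 28.3% (25.5 to 31.3%) in the control and 84.5% (82.1 to 86.7%) in the transgenic section.

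The other delayed rectifier genes differed less. Kcnh2, the ERG1 pore of the rapid delayed rectifier, was at 80.0 CPM in control tissue and 103 CPM in transgenic tissue, for a log2 ratio of 0.37 (0.25 to 0.48) that came to 0.21 with TMM factors, which scale the sections on genes of middling ratio. Its candidate partner Kcne2 had 19 and 10 UMIs, too few for the interval to leave 0. Kcna5, the Kv1.5 pore of the ultrarapid current, was at 18.1 and 11.1 CPM (-0.70, interval -1.01 to -0.40). Kcna7, a further Kv1 pore of muscle, was at 17.5 and 8.88 CPM (-0.98, interval -1.31 to -0.66). The transgenic quadrants lay below the control ones for Kcna5 and Kcna7 and above them for Kcnh2.

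Among genes for channel subunits that do not form a working pore alone, Kcng2 was the most counted voltage-gated member. It encodes a silent subunit that joins Kv2 channels, and it was at 232 CPM (3335 UMIs) in the control and 79.9 CPM (1035 UMIs) in the transgenic section, for a log2 ratio of -1.54 (-1.64 to -1.44). Kcnv2, another silent subunit, had 36 and 8 UMIs, for a log2 ratio of -2.02 with a wide interval of -3.34 to -0.89.

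Of the genes that can form classical inward rectifier channels, which stabilise the resting potential, the usual cardiac pair was lower and Kcnj14 was higher. Kcnj2 encodes Kir2.1, the main pore of the inward rectifier current in ventricle, and was at 102 CPM (1461 UMIs) in the control and 32.9 CPM (426 UMIs) in the transgenic section, for a log2 ratio of -1.63 (-1.79 to -1.47). Kcnj12, the Kir2.2 gene, was at 75.7 and 28.6 CPM, for a log2 ratio of -1.40 (-1.58 to -1.23). Kcnj14 encodes Kir2.4, which is known mainly from neurons, and had 40 UMIs (2.78 CPM) in the control and 937 UMIs (72.3 CPM) in the transgenic section. Its log2 ratio of 4.70 (4.24 to 5.19), a 26.0-fold higher level, was the highest of the family, and every transgenic quadrant (42.3 to 102 CPM) lay above every control quadrant (2.22 to 3.22 CPM). Kcnj4, the Kir2.3 gene, had 14 and 21 UMIs and its interval held 0. Kcnj14 thus held 1.54% (1.10 to 2.09%) of the UMIs of these 4 genes in the control and 53.4% (51.0 to 55.7%) in the transgenic section.

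The acetylcholine-activated channel of atrium and pacemaker tissue is built from the products of Kcnj3 and Kcnj5, and both genes were lower. Kcnj3 was at 79.1 CPM (1137 UMIs) in the control and 45.5 CPM (590 UMIs) in the transgenic section, for a log2 ratio of -0.80 (-0.94 to -0.65), and Kcnj5 at 83.3 and 34.6 CPM, for a log2 ratio of -1.27 (-1.43 to -1.11). Neither pair of quadrant ranges overlapped. The atrial marker list moved the other way, from 25.4 to 131 CPM, through Dkk3 (57 and 947 UMIs), Myl7 (125 and 409) and Myl4 (158 and 328). Sln (16 and 10 UMIs) and Bmp10 (9 and 9), also on that list, had too few UMIs to tell. The part of the atrial list in these values was not tested.

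The ATP-sensitive channel, which opens when ATP falls, pairs a Kir6 pore with a sulfonylurea receptor. Kcnj11, the Kir6.2 pore of the ventricle, was at 204 CPM (2926 UMIs) in the control and 128 CPM (1654 UMIs) in the transgenic section, for a log2 ratio of -0.67 (-0.76 to -0.58). Kcnj8, the Kir6.1 pore of vessel walls, was at 74.3 and 62.7 CPM (-0.24, interval -0.38 to -0.11), with quadrants that overlapped. Outside the symbol rule, the SUR2 gene Abcc9 was at 254 and 85.3 CPM, for a log2 ratio of -1.58 (-1.67 to -1.48), while the SUR1 gene Abcc8 had 330 and 375 UMIs (0.33, interval 0.12 to 0.55). Abcc8 held 8.28% (7.44 to 9.18%) of the receptor UMIs in the control and 25.3% (23.1 to 27.6%) in the transgenic section.

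Kcnk3, which encodes the acid-sensitive background channel TASK-1, was the most counted member of the family. It had 6719 UMIs (467 CPM) in the control and 1953 UMIs (151 CPM) in the transgenic section, for a log2 ratio of -1.63 (-1.71 to -1.56), with quadrants of 445 to 512 CPM against 136 to 169 CPM. The other two-pore members were counted far less often, and of these only Kcnk10, the TREK-2 gene, had an interval that left 0, with 15 and 39 UMIs and a log2 ratio of 1.53 (0.64 to 2.49), or 0.97 with 1 CPM added to both sections. Kcnk2 (25 and 20 UMIs), the gene of the stretch-activated channel TREK-1, and Kcnk6 (58 and 70 UMIs) had intervals that held 0.

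None of the 7 calcium-activated genes differed 2-fold, while 5.61% of all genes were at least 2-fold lower and 13.7% higher. The small-conductance pore genes Kcnn1 (18.2 and 11.8 CPM, for a log2 ratio of -0.63) and Kcnn2 (25.2 and 16.8 CPM, for a log2 ratio of -0.59) were lower, each with quadrants that did not overlap, while Kcnn3 had 32 and 28 UMIs. The large-conductance pore gene Kcnma1, known from smooth muscle, had 26 and 23 UMIs, and its β1 subunit gene Kcnmb1 75 and 80. Kcnmb4, which encodes a β4 subunit best known from neurons, had 16 UMIs in the control and 82 in the transgenic section, for a log2 ratio of 2.51 (1.72 to 3.38), which came to 1.79 with 1 CPM added to both sections and to 1.60 in the upper 50% of spots for cardiomyocyte markers. Among genes with few UMIs, Kcnc4 (15 and 52), which encodes a Kv3 pore, and Kcne1l (26 and 50), which encodes a small accessory subunit, were also at least 2-fold higher. The list of Schwann cell and nerve markers went from 15.2 to 64.9 CPM through Tubb3 (28 and 668 UMIs), while the Schwann cell factor Sox10 (29 and 21 UMIs) was not higher, and its part in these values was not tested.

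**Figure D2:**
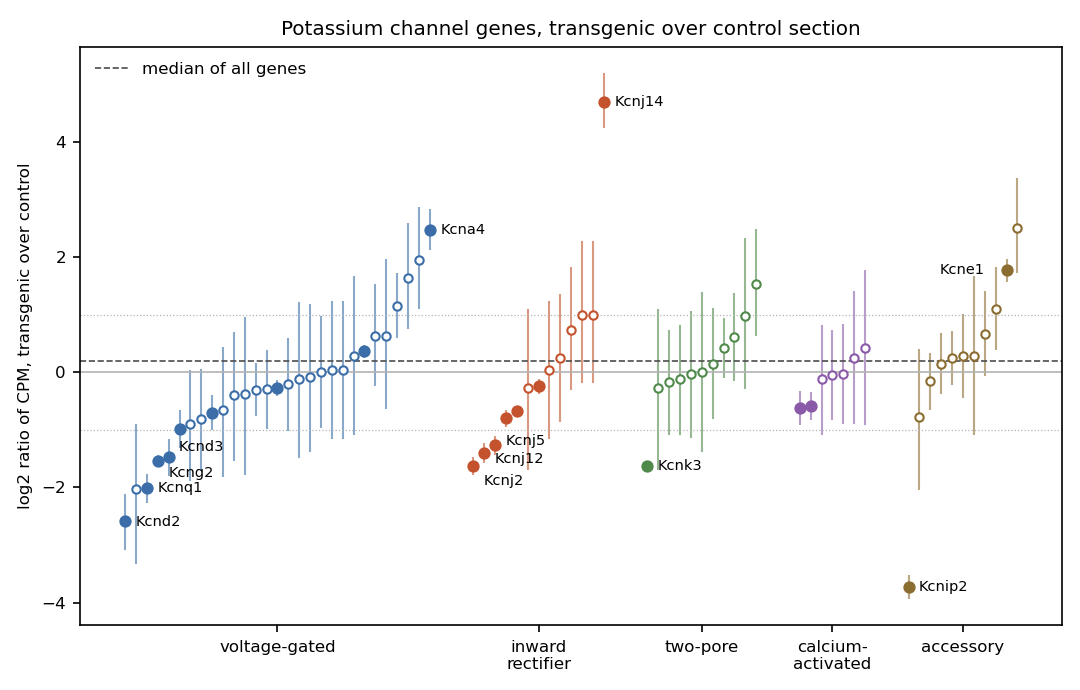
Log2 ratio of transgenic over control CPM (vertical axis) for each of the 71 members, ordered within 5 subfamilies (horizontal axis), with 95% counting intervals as lines. Filled points had at least 200 UMIs, those past 2-fold (dotted lines) are named, and the dashed line at 0.20 is the median of all genes. The filled points run from Kcnip2 at -3.72 to Kcnj14 at 4.70, and most lie below 0.

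Over the whole family, 10 of the 71 members (14.1%) were at least 2-fold lower in the transgenic section, against 5.61% of all genes, and 9 (12.7%) were at least 2-fold higher, against 13.7% of all genes. The 10 lower genes were Kcnip2, Kcnd2, Kcnv2, Kcnq1, Kcng2, Kcnd3, Kcnj2, Kcnj12, Kcnj5 and Kcnk3. The whole interval lay below 0 for 18 members (25.4%, against 17.0% of all genes) and above 0 for 10 (14.1%, against 39.4%), and for 43 it held 0. Every transgenic quadrant was below every control quadrant for 17 members (23.9%, against 13.1% of all genes) and above for 9 (12.7%, against 30.4%). Counts by interval and by quadrant depend on depth, and 21 of the 71 members had at least 200 UMIs, against 9320 of the 15236 genes. The share of higher members past 2-fold was near that of all genes, while the share of lower members was larger.

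Most of the members at least 2-fold lower were well counted. For the 21 members with at least 200 UMIs the median log2 ratio was -0.80, 9 of them (42.9%) were at least 2-fold lower, against 5.47% of the 9320 genes with as many UMIs, and 3 (14.3%) were at least 2-fold higher, against 12.7%. These 3 were Kcna4, Kcne1 and Kcnj14. The minimum of 200 was also set on the sum of both sections, so a member could pass through the section in which it was high. Kcnd2 (281 UMIs in the control, 42 in the transgenic section), Kcna4 (81 and 406) and Kcnj14 (40 and 937) passed in this way. Kcnq1, Kcnd3, Kcna7, Kcna5 and Kcnn1 also had at least 200 UMIs in the control section only. Kcna4 and Kcnj14 are among the 3 higher members, and Kcnd2, Kcnq1 and Kcnd3 are among the 9 lower ones. Both counts thus rest in part on the filter. For the 50 members with fewer UMIs the median was 0.04, and the interval held 0 for 43 of them. Over all 71 the median was -0.04, which was 0.24 below the median of all genes. Each member was also set against the 100 genes of most similar mean CPM, and the median of these differences was -0.15, with -3.77 for Kcnip2, -2.79 for Kcnd2, -1.72 for Kcnk3, 1.48 for Kcne1 and 4.49 for Kcnj14. For some thinly counted members, such as Kcnc1 and Kcnk9, the median ratio of the matched genes equalled the member's own ratio. Their difference was then 0 through the matching itself, which pulls the median of -0.15 toward 0.

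By subfamily, the median log2 ratio was -0.27 for the 29 voltage-gated members, of which 5 were at least 2-fold lower and 4 higher, and -0.24 for the 13 inward rectifiers, of which 3 were lower and 1 higher. It was 0.01 for the 11 two-pore members (1 lower, 1 higher), -0.04 for the 7 calcium-activated members (0 and 0) and 0.28 for the 11 accessory subunits (1 lower, 3 higher). Over all genes, 5.61% were at least 2-fold lower and 13.7% higher, and counts in such small groups were not read as a trait of a subfamily. Relative to genes of similar mean CPM, the medians in the same order were -0.55, 0, 0, -0.41 and -0.15. The values of 0 fell on members such as Kcnj1 and Kcnk9, whose difference was 0 through the matching itself. They do not show that these subfamilies equalled their matched genes. The accessory median changed sign, from 0.28, or 0.08 relative to all genes, to -0.15. Summed over the 71 members, 1964 CPM in the control stood against 1090 CPM in transgenic tissue. Of these sums, the 50 members with under 200 UMIs held 87.5 and 107 CPM, and the 21 others 1876 and 983 CPM. Kcnk3 alone accounted for 467 and 151 CPM. The summed cardiomyocyte markers were also lower in the transgenic section, led by Tnni3 and Atp2a2 with log2 ratios of -1.92 and -1.66, while Tnnt2 and Mybpc3 were at 0.17 and 0.13. The fibroblast list went from 1116 to 1734 CPM, the macrophage list from 185 to 375 CPM and the erythroid list from 2145 to 20389.5 CPM, and fewer cells of a type cannot be told apart from less RNA per cell in such sums. The part of these lists in the channel values was not tested. Among those spots that ranked in the upper 50% for cardiomyocyte markers Kcnip2 was at -3.44, Kcnk3 at -1.49, Kcna4 at 2.88, Kcnj14 at 3.96, Kcnmb4 at 1.60 and Kcnn1 at -0.28.

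**Figure D3:**
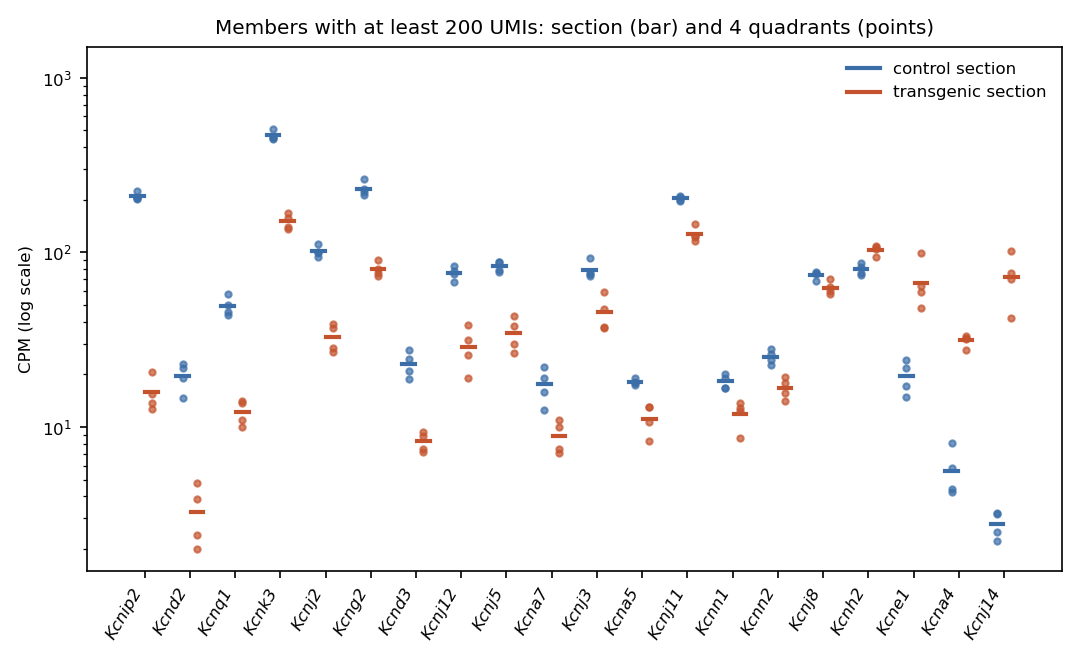
CPM on a log scale (vertical axis) of 20 of the 21 members with at least 200 UMIs, ordered by log2 ratio (horizontal axis), in the control (blue) and transgenic (orange) section. Bars mark the section and points its 4 quadrants, which are not replicates; the points of the sections overlap for Kcnj8 alone, lie lower in the transgenic section for 15 genes and higher for 4.

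Partner genes outside the symbol rule, taken from a list of channel subunits, scaffolds, receptor signalling and Iroquois factors, included 20 with at least 20 UMIs, of which 4 were at least 2-fold lower and 1 higher, against 5.61% and 13.7% of all genes. Irx4, a ventricular Iroquois transcription factor, was at 56.1 CPM in control tissue and 13.4 CPM in transgenic tissue, for a log2 ratio of -2.06 (-2.31 to -1.83). Irx5, known to restrain Kcnd2 in the inner ventricular wall, was at 14.7 and 13.0 CPM (-0.18, interval -0.48 to 0.12), and Irx3 at 11.2 and 16.3 CPM (0.54, interval 0.24 to 0.85). The lower group also held Abcc9 and the large-conductance γ subunit genes Lrrc38 (22 and 5 UMIs) and Lrrc55 (68 and 21 UMIs). Lrrc38 went from -1.99 to -0.87, under the 2-fold call, with 1 CPM added to both sections.

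In the pathway that opens the acetylcholine-activated channel, the muscarinic receptor gene Chrm2 was at 46.6 and 43.5 CPM (-0.10, interval -0.26 to 0.07), and the adenosine A1 receptor gene Adora1 at 21.4 and 40.8 CPM, for a log2 ratio of 0.93 (0.73 to 1.14). Gnao1, a Gi/o family α subunit abundant in neurons, was at 16.3 and 81.4 CPM, for a log2 ratio of 2.32 (2.11 to 2.53), and Gnai2 at 342 and 603 CPM (0.82). Of the remaining partners, the scaffold genes Dlg1 (-0.56), Cav3 (-0.34) and Akap9 (-0.27) and the Kv2 partner Amigo1 (-0.42) had intervals below 0. The regulators Rgs4 (-0.26) and Rgs6 (0.40) differed in sign, the β subunit genes Gnb1 (0.52) and Gnb5 (0.15, but -0.01 with TMM factors) had intervals above 0, Lrrc52 (15 and 14 UMIs) held 0, and the Kv4 partners Dpp6 and Dpp10 and the γ subunit Lrrc26 were under 20 UMIs.

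Moran's I scores how much neighbouring spots resemble each other, and it can lie near 0 for a thinly counted gene whatever its layout. It was at least 0.05 for 3 of 71 members in the control (against 2.00% of all genes) and for 10 in the transgenic section (against 19.4%). The 3 in the control were Kcne1 (0.09), Kcnk3 (0.06) and Kcnip2 (0.06). In the transgenic section the score was highest for Kcnj14 (0.27), followed by Kcnk3 (0.15), Kcnj11 (0.11) and Kcne1 (0.11).

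Kcnip2 was slightly lower at the border of the control tissue. In spots with fewer than 6 neighbours over tissue it was at 182 CPM, in each of the next 2 rings inward at 201 CPM and in spots at least 4 deep at 222 CPM, and the edge spots differed from the rest by a log2 ratio of -0.23 (-0.40 to -0.07), with 8834.5 against 11652.5 UMIs per spot. Kcnk3 levels at these 4 depths were 419, 462, 454 and 487 CPM. In the transgenic section the Kcnip2 levels were 19.2, 11.7, 15.1 and 17.9 CPM and those of Kcnk3 150, 148, 153 and 153 CPM. Kcne1 in the control was at 25.3 CPM in edge spots, which border the cavities too, at 21.0 and 23.1 CPM in the next rings and at 16.1 CPM in spots at least 4 deep. Spots in the top 10% for fibroblast markers held less Kcnip2 than the others in the control (-0.32, interval -0.53 to -0.12) and more Kcne1 (0.78, interval 0.25 to 1.27).

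**Figure D4:**
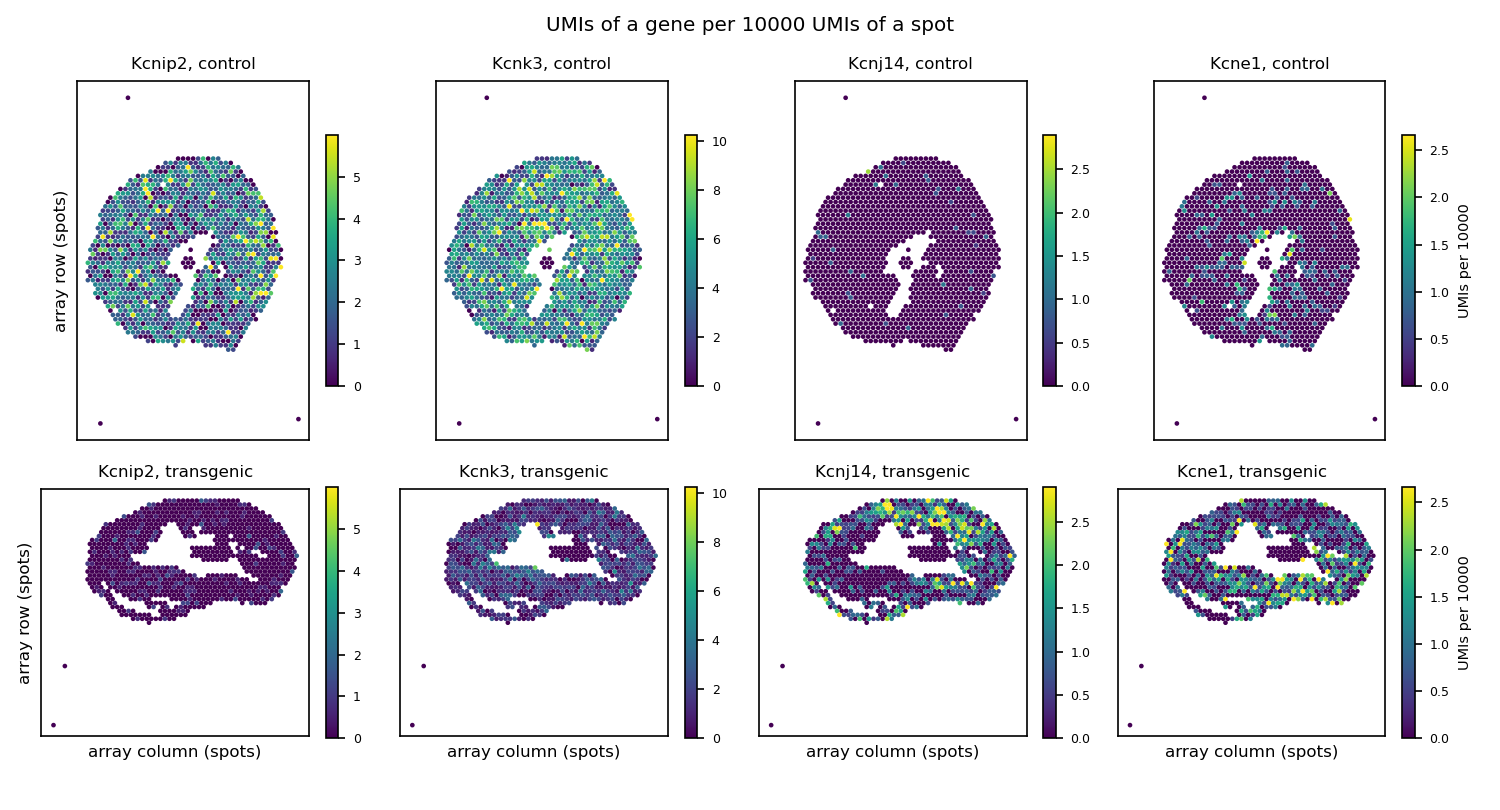
Each dot is a spot at its place on the array (axes are array column and row), coloured by UMIs of the gene per 10000 UMIs of the spot, with 1 colour scale per gene for both sections that is capped at its upper end. Kcnip2 and Kcnk3 fill the control section and are dim in the transgenic section. Kcnj14 is nearly absent from the control and uneven in the transgenic section, with 42.3 to 102 CPM over its quadrants. Kcne1 in the control was at 25.3 CPM in edge spots and 16.1 CPM in spots at least 4 deep. The few dots outside the tissue are the 11 control and 2 transgenic spots apart from it.

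Kcnj14, the gene with the highest score, was uneven in the transgenic section. In the 10% of spots richest in cardiomyocyte markers it was at 30.5 CPM against 77.0 CPM elsewhere, for a log2 ratio of -1.33 (-1.83 to -0.88). In the 10% richest in erythroid markers it was at 35.1 against 74.7 CPM (-1.09, interval -1.70 to -0.54), where the median spot had 8176 against 14813 UMIs. It was at 61.5 CPM in edge spots and 76.6 CPM elsewhere. Sprr1a, a stress-induced gene of injured cardiomyocytes, was set beside it after the values were seen. In the 92 spots richest in Sprr1a, Kcnj14 was at 157 CPM against 61.7 CPM in the other 832, for a log2 ratio of 1.35 (1.13 to 1.57), while Kcne1 was at 41.1 against 69.7 CPM (-0.76, interval -1.17 to -0.38, and -0.32 with the top 20% of spots), and Kcnip2, Kcna4 and Kcnk3 had intervals that held 0.

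Transgenic spots were also ordered by the share of Myh7, the fetal myosin heavy chain gene of mouse ventricle, in the UMIs of Myh6 and Myh7, and cut into 3 equal groups of 295 spots with shares of 44.8, 57.7 and 68.0%. From the lowest to the highest group Kcne1 went from 51.9 to 82.6 CPM (log2 ratio 0.67, interval 0.42 to 0.92) and Kcnj5 from 28.3 to 45.7 CPM (0.69, interval 0.36 to 1.03). Kcng2 (0.49), Kcnj12 (0.52) and Kcnk3 (0.23, interval 0.07 to 0.39) lay the same way. Kcnj14, from 88.5 to 64.4 CPM (-0.46, interval -0.69 to -0.23), Kcnj2 (-0.49) and Kcnn1 (-0.74) lay the other way. Of the transient outward genes, Kcnip2 was at -0.03, Kcna4 at -0.04, Kcnd3 at 0.44 and Kcnd2, with 20 UMIs in the lowest and 11 in the highest group, at -0.77, each with an interval that held 0. Over the same groups the fibroblast list went from 0.139 to 0.218% of UMIs, the erythroid list from 0.777 to 1.61% and the cardiomyocyte list from 3.28 to 2.98%, and their part in these differences was not tested.

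Genes of vascular smooth muscle could be placed by the spots richest in mural markers, which are genes of smooth muscle cells and pericytes. Kcnab1, the gene of a Kv1 β subunit, was at 17.7 CPM in the top 10% of control spots and 4.09 CPM in the others, for a log2 ratio of 2.11 (1.36 to 2.82), and at 13.1 and 3.89 CPM in transgenic tissue (1.75, interval 0.87 to 2.57). Kcnmb1 was higher there in the control (1.43, interval 0.55 to 2.23), and in the transgenic section its interval held 0 (0.83, interval -0.12 to 1.68). Kcnj8 was not raised in these spots in either section, with 0.13 and -0.03 and intervals that held 0, and neither were Abcc9, Kcnk3 and Kcnip2. The mural list itself summed to 918 CPM in control tissue and 1100 CPM in transgenic tissue.

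**Figure D5:**
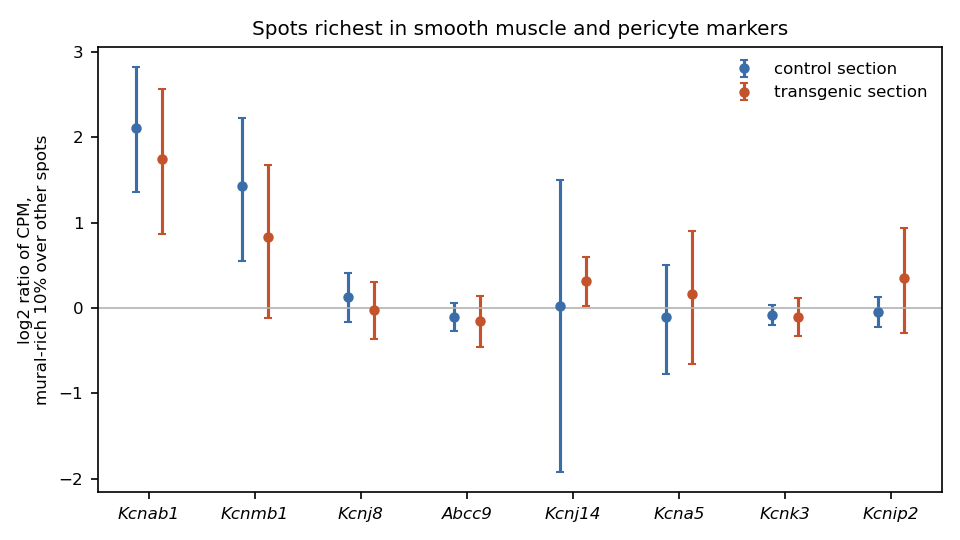
Log2 ratio of CPM in the 10% of spots richest in mural markers over all other spots (vertical axis) for 8 genes in the control (blue) and transgenic (orange) section, with 95% counting intervals. Kcnab1 lies at 2.11 and 1.75, Kcnmb1 at 1.43 and 0.83, Kcnj14 at 0.02 and 0.32, and Kcnj8, Abcc9, Kcna5, Kcnk3 and Kcnip2 have intervals that reach 0.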

How the data were processed

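The deposited UMI counts, not normalized, cover each gene and spot of 1 control and 1 TOP2B transgenic section and were made with Space Ranger 2.0.0 and, per the labels, with bcl2fastq and build GRCm39 (mm39). The probe set is not given in the sources used here. The authors also deposited Moran's I, a score, which was used as given.

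Counts were summed over all spots over tissue, and CPM, log2 ratios and shares were computed from the sums. Intervals are exact 95% Poisson (CPM), binomial (shares) and conditional binomial (ratios) intervals and cover counting error only. A count of 0 was set to 3 counts (0.209 CPM in the control, 0.232 CPM in the transgenic section). Genes needed 20 UMIs over both sections. No p value was computed, and the methods' Wilcoxon test, which takes spots as units, was not run. Marker-rich spots were the 10% with the highest share of a list, and the Myh7 groups used spots in which Myh6 and Myh7 together had at least 20 UMIs. Named genes were members past 2-fold with 200 UMIs in a section, the extremes and the most counted member of each subfamily, genes of the cardiac current list, partner genes and Top2b, and the others were chosen after their values were seen. A few members and marker genes are counted but not reported here by name. The members and lists were chosen with earlier results of these data known. The ratio and interval code was tested on simulated data. Alternatives used edgeR 4.0.16 TMM and DESeq2 1.42.0 size factors (R 4.3.3) as scalings only, other spots, count minimums and 1 added CPM. Python 3.11.15, numpy 2.4.6, scipy 1.17.1, pandas 2.3.3 and matplotlib 3.10.9 were used.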

Additional observations from a re-analysis of the deposited data

How the results depend on the processing

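No paired analysis was possible because each genotype had 1 section, and for the same reason no replicate could be left out. TMM factors lowered every log2 ratio by 0.16, DESeq2 size factors by 0.15 and totals without the 50 most abundant genes by 0.09, with the median of all genes moving alike. The DESeq2 size factors were 1 for both sections, so that setting compared the summed UMIs unscaled. The family median relative to all genes ran from -0.15 to -1.01 over 14 alternatives. The value of -0.15 is the one relative to genes of similar mean CPM, which the matching of thinly counted members pulls toward 0. With at least 200 UMIs in place of 20, the relative median was -1.85 for the two-pore (Kcnk3 alone) and -1.19 for the accessory members (Kcnip2 and Kcne1), and 3 members in place of 9 were at least 2-fold higher. In the 50% of spots richest in cardiomyocyte markers, 18 members in place of 10 were at least 2-fold lower. Of the added members, Kcna7 had a total of 367 UMIs when all spots were counted. Kcna1, Kcnd1, Kcng4, Kcnh3, Kcnj1, Kcnn4 and Kcnv1 had totals of only 21 to 53, so their calls rest on few UMIs. No matching share of all genes is given for these spots, so the rise was not read as a stronger loss there. The 10 lower members kept their call under every scaling and choice of spots tried, while Kcne1l lost its call under 5 settings and Kcnc4 and Kcnk10 under 1 each. Of 583 gene values under alternatives, 537 stayed inside the counting interval, 46 moved beyond it and 0 members past 2-fold changed sign. Leaving out the spots richest in erythroid markers, or those apart from the tissue, was added after the data were seen and changed no count of calls. With 20% in place of 10% of spots, 27 of 28 rechecked values for marker-rich or Sprr1a-rich spots stayed inside their intervals, and Kcne1 in Sprr1a-rich spots moved from -0.76 to -0.32. Members under 200 UMIs are limited by depth, since 43 of 50 had an interval that held 0.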
